A study of Caenorhabditis elegans with 3 samples.

Results

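The lbp genes encode the intracellular lipid-binding proteins of the nematode Caenorhabditis elegans, the worm relatives of vertebrate fatty acid binding proteins. The family was taken by symbol, lbp-1 to lbp-9, and 8 of the 9 genes had a probe assigned to exactly 1 gene. They are 8 of the 15129 genes tested on these arrays. No 1-gene probe was named lbp-9, so lbp-9 was not analysed here. Each of the 8 measured genes had 1 probe, with a value on all 3 arrays.

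The samples were RNA of late third-stage (late L3) hermaphrodite larvae in 3 preparations (preps 1, 2 and 3), each on its own 2-colour microarray against a common wild-type mixed reference. The labels give no strain, culture temperature, age in hours or treatment for the larvae, and no stage or sex for what was pooled in the reference. A code shared by all 3 preps stands before the stage in each source name, and the labels do not explain it. The labels do not say whether the preps came from separate cultures. Prep, array and the date-like ending of each array title are a single factor. The p-values therefore cover only how much these 3 arrays vary, perhaps for technical reasons. The values are log2 ratios of the 2 channels, centred on the median of each array, so 0 is the array median and 1 is a 2-fold difference. Late L3 over reference is the likely direction, because the descriptions name the larvae first and the larval RNA is on the second channel; no source used here states the dyes or the numerator.

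Fatty acid binding proteins are small barrel-shaped proteins that hold a fatty acid or another lipid in an internal cavity. They carry these poorly soluble molecules between membranes, storage droplets, sites of breakdown and the nucleus, where some pass lipid ligands to nuclear hormone receptors. In C. elegans the intestine is the main organ of fat uptake and storage, and it supplies the growing body and the germ line with lipid. LBP-1, LBP-2 and LBP-3 carry a predicted secretion signal, which sets them apart from the mostly intracellular members.

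On the arrays as a whole, between 19855 and 19909 of 20000 probes had a value, and the scaled median absolute deviation was 0.69, 0.77 and 0.39 in preps 1, 2 and 3. Prep 3 was therefore the least spread array. Array pairs correlated at 0.69 to 0.75 over all probes (Pearson's r). Markers were called by limma at an adjusted p under 0.05, which called 11.4% of all genes tested higher and 11.9% lower. Of 13 oocyte and eggshell markers 11 were lower and 0 higher, with a median log2 ratio of -2.81. Of 8 male markers 0 passed in either direction. Intestine markers had 9 of 13 members higher and 1 lower (median 1.08), body wall muscle markers 8 of 10 higher and 0 lower (1.93), and epidermis markers 6 of 14 higher and 1 lower (0.58). Neuron markers had 3 of 11 lower and 0 higher (-0.45), sperm markers 4 of 10 lower and 0 higher (-0.26), and coelomocyte markers 0 of 3 past the threshold (-0.02).

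The question put to the family was which of its transcripts stood above or below the mixed reference in late L3 larvae. The genes lbp-5, lbp-6 and lbp-7 were higher, at 2.73-fold, 3.80-fold and 4.95-fold, and lbp-1 was lower, at 3.32-fold. The remaining 4 genes, lbp-2, lbp-3, lbp-4 and lbp-8, did not pass. The calls are those of limma at an adjusted p under 0.05, and over all genes tested 11.4% were called higher and 11.9% lower, 23.3% in either direction. The 3 higher and 1 lower of 8 lbp genes are given as counts beside that background, without a test of the family against other genes. The median over the 8 gene means was 0.17, against -0.0027 over the means of all genes tested. In whole larvae, fewer cells of a type and less RNA per cell cannot be told apart, so a ratio can reflect either.

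**Figure D1:**
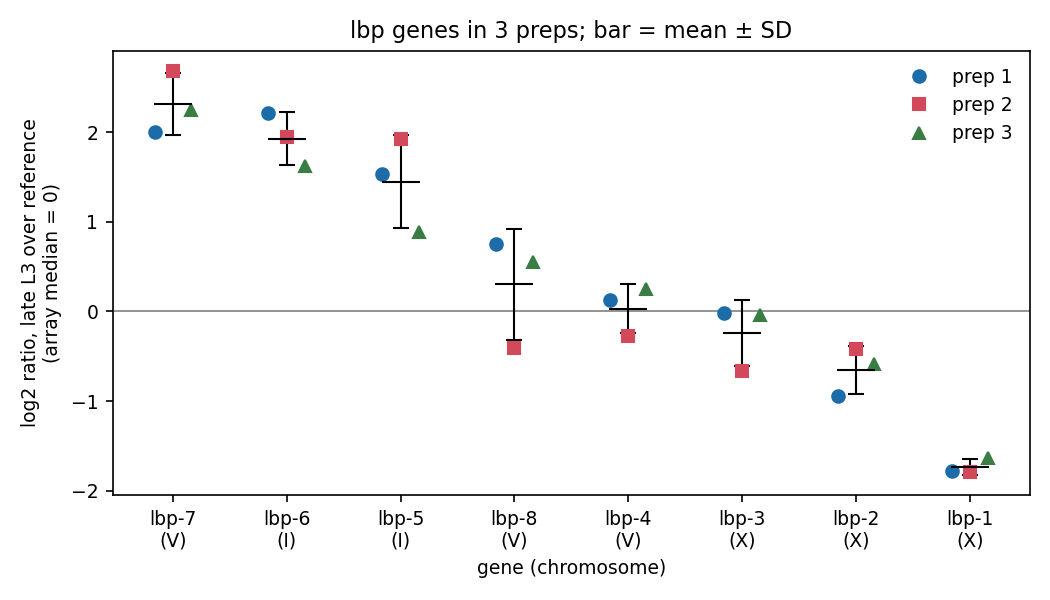
Centred log2 ratio (late L3 over reference, y axis) of the 8 measured lbp genes (x axis, chromosome in brackets), with 1 point for each of preps 1, 2 and 3 and a bar for the mean ± SD. The points of lbp-7, lbp-6 and lbp-5 all lie above 0, those of lbp-1 lie at -1.63 or below, and those of lbp-8 and lbp-4 fall on both sides of 0.

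Among the intracellular members, lbp-7 (T22G5.2, chromosome V) had log2 ratios of 2.00, 2.68 and 2.25 in preps 1, 2 and 3. All 3 preps stood far above the array median, and prep 2, the most spread array, was the highest. The mean was 2.31 ± 0.35 (SD, n = 3; limma adjusted p = 8.08e-05), with a 95% interval of the fold from 3.51 to 7.0. Only 0.853% of the tested genes had a higher mean than lbp-7.

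The gene lbp-6 (W02D3.5, chromosome I) had log2 ratios of 2.21, 1.94 and 1.62 in preps 1, 2 and 3. It exceeded lbp-7 in prep 1 and lay below it in preps 2 and 3, so the order of these neighbours was not the same on every array. The mean of lbp-6 was 1.92 ± 0.30 (SD, n = 3; limma adjusted p = 0.00022), and 1.36% of tested genes stood above it.

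For lbp-5 (W02D3.7, chromosome I), mutants of which have altered fat storage, the log2 ratios were 1.53, 1.92 and 0.89 in preps 1, 2 and 3. Prep 3, the least spread array, was the low one. It still lay above every value of the 5 genes that stood below lbp-5 in the order of means. The mean was 1.45 ± 0.52 (SD, n = 3; limma adjusted p = 0.00219), with 3.17% of tested genes above it. Its SD, of values not scaled for array spread, was larger than that of 76.5% of genes. It was the second largest of the family after lbp-8.

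LBP-8 is known as a lysosomal lipid messenger: it moves from the lysosome to the nucleus and acts there through the nuclear hormone receptors NHR-49 and NHR-80. The log2 ratios of lbp-8 (T22G5.6, chromosome V) were 0.76, -0.40 and 0.55 in preps 1, 2 and 3, positive on 2 arrays and negative on the other. The mean was 0.30 ± 0.62 (SD, n = 3; limma adjusted p = 0.444), and the 95% interval of the fold ran from 0.825 to 1.84. Without prep 2 the mean was 0.65, and the adjusted p was 0.123.

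The gene lbp-4 (ZK742.5, chromosome V) had log2 ratios of 0.13, -0.28 and 0.25 in preps 1, 2 and 3. Its mean of 0.03 ± 0.28 (SD, n = 3; limma adjusted p = 0.933) lay close to the array median, with prep 2 below it and preps 1 and 3 above. The 95% interval of its fold, 0.732 to 1.43, leaves out a 2-fold difference in either direction.

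The members with a predicted secretion signal all had means below the array median, but only lbp-1 passed. The median over the means of all genes tested was -0.0027, so a mean below 0 is common. The log2 ratios of lbp-1 (F40F4.3, chromosome X) were -1.78, -1.79 and -1.63 in preps 1, 2 and 3. These values lay within 0.16 of each other, the tightest of the family, and 4.88% of all tested genes had a smaller SD. The mean was -1.73 ± 0.09 (SD, n = 3; limma adjusted p = 0.000285), and only 2.47% of tested genes stood below lbp-1. That tightness is of values not scaled for the unlike spread of the arrays. With arrays scaled to one median absolute deviation the mean was -1.86, and the limma adjusted p rose to 0.00375.

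The gene lbp-2 (F40F4.2, chromosome X) had log2 ratios of -0.94, -0.42 and -0.58 in preps 1, 2 and 3. All 3 values were negative and none overlapped with those of lbp-1. The mean was -0.65 ± 0.27 (SD, n = 3), 1.57-fold lower, with a limma adjusted p of 0.0553, just short of the threshold. It passed with quantile normalization (adjusted p = 0.0376) and with array weights (0.0411). Without prep 1 its adjusted p was 0.280.

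LBP-3 is known to be secreted from the intestine and to carry a lipid signal to neurons. The log2 ratios of lbp-3 (F40F4.4, chromosome X) were -0.01, -0.66 and -0.04 in preps 1, 2 and 3. Preps 1 and 3 sat at the array median, and prep 2 stood apart below it. The mean was -0.24 ± 0.37 (SD, n = 3; limma adjusted p = 0.491), with a 95% interval of the fold from 0.598 to 1.2. Without prep 2 the mean was -0.03.

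**Figure D2:**
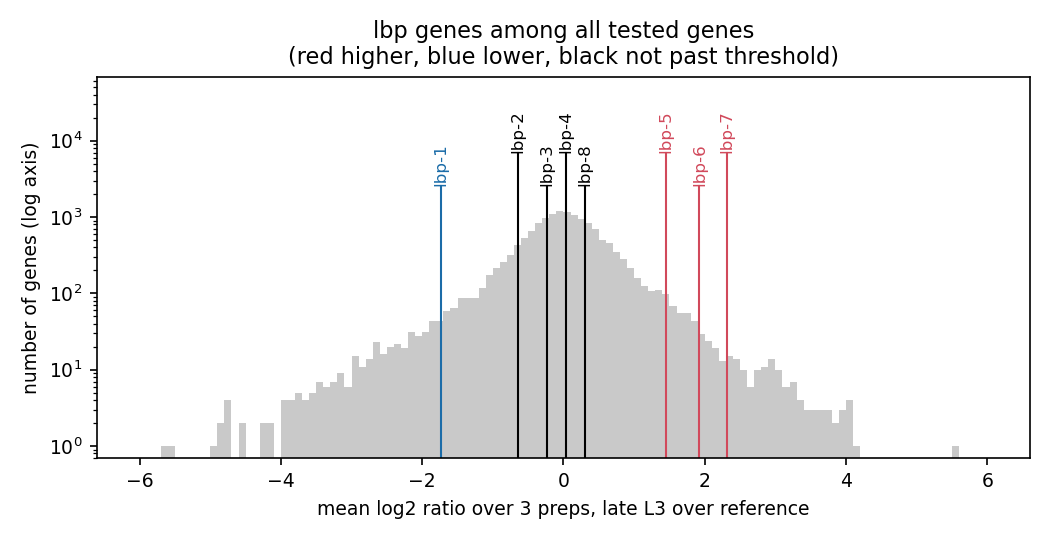
Histogram of the mean log2 ratio over 3 preps (x axis) of all 15129 genes tested (number of genes on a log y axis), with a line at the mean of each lbp gene. The higher genes lbp-5, lbp-6 and lbp-7 and the lower gene lbp-1 lie in the flanks, and the 4 genes that did not pass lie in the central peak.

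By mean log2 ratio the order was lbp-7, lbp-6, lbp-5, lbp-8, lbp-4, lbp-3, lbp-2 and lbp-1, over a range of 4.04. This is an order of ratios to the reference, not of transcript levels, which 2-colour ratios do not give. The values of lbp-7 and lbp-6 overlapped, as did those of lbp-6 and lbp-5, lbp-8 and lbp-4, lbp-4 and lbp-3, and lbp-3 and lbp-2. Paired by array, lbp-6 stood above lbp-5 and lbp-4 above lbp-3 on all 3 arrays, lbp-6 by only 0.02 in prep 2. In the other overlapping pairs the upper gene was higher on 2 of 3 arrays. Gaps with no overlap separated lbp-5 from lbp-8, by 0.78, 2.32 and 0.34 in preps 1, 2 and 3, and lbp-2 from lbp-1, by 0.84, 1.37 and 1.05. Joining neighbours that overlapped gave a higher group of 3 genes, a middle group of 4 and lbp-1 alone below. Not all members of a group overlapped with each other. The lowest value of lbp-7, 2.00, lay above the highest of lbp-5, 1.92. All values of lbp-4 and lbp-8 lay above those of lbp-2. The breaks between the groups were not the widest gaps on every array. In prep 3 lbp-6 minus lbp-5 was 0.73, against 0.34 for lbp-5 minus lbp-8. In prep 1 lbp-3 minus lbp-2 was 0.93, against 0.84 for lbp-2 minus lbp-1. The genes lbp-7, lbp-6 and lbp-5 held the top 3 places on each of the 3 arrays, and lbp-1 was last on each. An exact sign-flip test of 3 paired differences cannot give a 2-sided p below 0.25. Neighbouring genes were therefore described by overlap and by their differences on each array, without a test.

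The preps did not shift the family as one. Prep 2 held the lowest value of 4 of the 8 genes (lbp-1, lbp-3, lbp-4 and lbp-8) and the highest of 3 others (lbp-2, lbp-5 and lbp-7). Over all genes tested, prep 2 held the lowest value for 33.9% and the highest for 38.5%. The family medians were 0.44, -0.34 and 0.40 in preps 1, 2 and 3, and in prep 2 the median lay between lbp-4 and lbp-8. Each of the 4 called genes stayed past the threshold with any single prep left out; the largest adjusted p then was 0.0310, for lbp-5 without prep 2.

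Chromosomal position was taken from the order of genes in the RefSeq table of assembly WBcel235; coordinates are not given because the build behind the probes is not stated in the sources used here. On chromosome X, lbp-3, lbp-1 and lbp-2 are direct neighbours in that order, with no other protein-coding gene between them. The middle gene lbp-1 was the low one: lbp-3 minus lbp-1 was 1.77, 1.13 and 1.59 in log2 ratio in preps 1, 2 and 3. The flanking genes tba-9, a tubulin gene, at -0.01 ± 0.88, and fbxb-71, an F-box gene, at -0.25 ± 0.26 (SD, n = 3 each) did not pass (limma adjusted p = 0.985 and 0.440). Low ratios in this stretch thus passed this test for lbp-1 alone.

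On chromosome I, lbp-6 and lbp-5 are separated by 1 protein-coding gene, ant-1.2, of the mitochondrial adenine nucleotide carriers. It had log2 ratios of 0.55, 0.75 and -0.01, below both lbp genes on every array, and did not pass (limma adjusted p = 0.209). Beyond lbp-5 lies smg-5, a gene of nonsense-mediated mRNA decay, which was at -0.09 ± 0.16 (SD, n = 3; limma adjusted p = 0.786). The mechanosensory gene mec-6, on the other side of lbp-6, was not among the genes tested.

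On chromosome V, lbp-7 and lbp-8 lie 3 protein-coding genes apart, and their ratios differed. In log2 ratio lbp-7 minus lbp-8 was 1.24, 3.08 and 1.70 in preps 1, 2 and 3, a mean of 2.01 ± 0.96 (SD, n = 3). Next to lbp-7 stand T22G5.1, at 0.62 ± 0.61 (limma adjusted p = 0.116), and T22G5.3, at -0.08 ± 0.16 (0.825), and next to lbp-8 stand spp-12, of the saposin-like proteins, at -0.24 ± 0.45 (0.503), and the sphingolipid synthesis gene sptl-3, at -0.10 ± 0.10 (0.764; SD, n = 3 each). Between T22G5.3 and spp-12 lies srsx-19, named after its values were seen, at -0.70 ± 0.38 (SD, n = 3), lower with a limma adjusted p of 0.049997 that sits just under the threshold. None of the 4 direct neighbours of these lbp genes passed. The gene lbp-4 lies elsewhere on chromosome V beside mig-6, which encodes papilin, an extracellular matrix protein, and mig-6 was higher at 1.54 ± 0.17 (SD, n = 3; limma adjusted p = 0.000611). Of the 13 protein-coding genes that border the 9 lbp genes and are no lbp gene themselves, 9 were measured, 1 was higher and 8 did not pass. Over all genes tested 11.4% were higher and 11.9% lower. The count is near those shares, and 9 genes are too few to set neighbours apart from other genes.

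**Figure D3:**
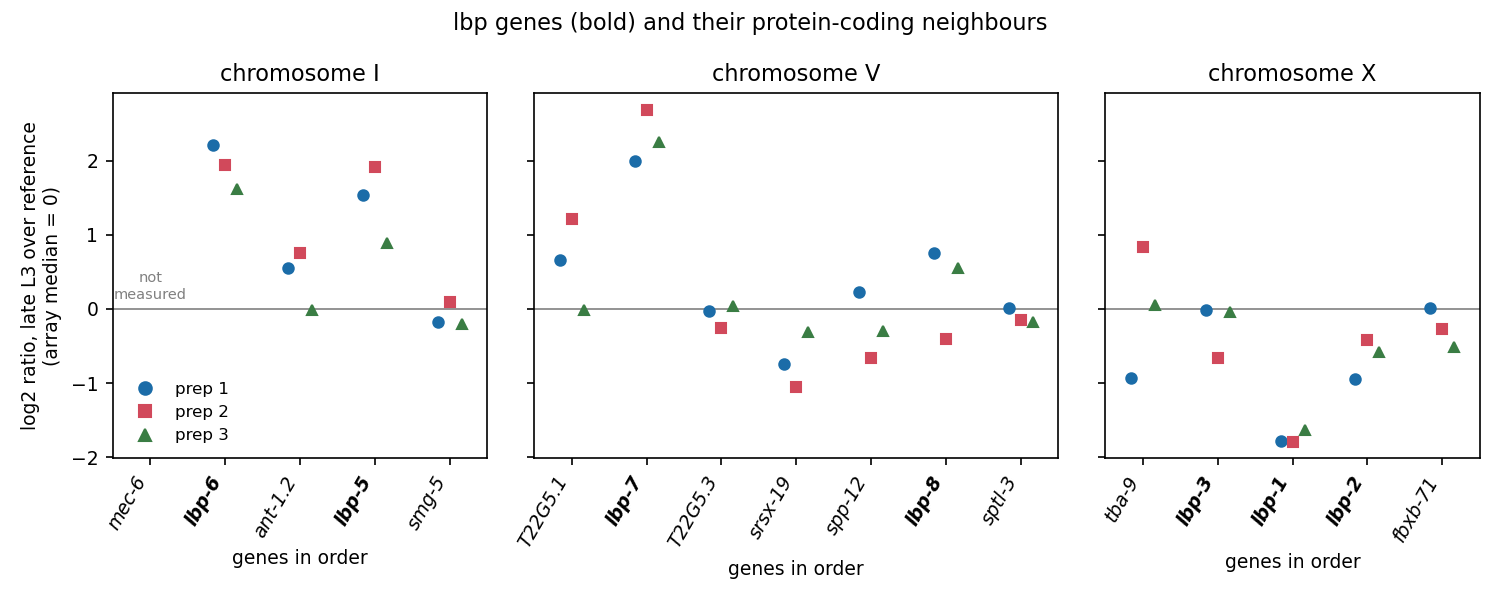
Centred log2 ratio (late L3 over reference, y axis) in preps 1, 2 and 3 for the lbp genes in bold and the protein-coding genes beside and between them, in chromosomal order (x axis, equal spacing). lbp-6, lbp-5 and lbp-7 stand above their measured neighbours on every array, and lbp-1 stands below its neighbours lbp-3 and lbp-2 on every array.

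For the highest and the lowest member, the genes with the most similar values were found by Euclidean distance over the 3 centred arrays. Closest to lbp-7 were slc-36.2 at a distance of 0.20, pgph-3 at 0.25 and the ER chaperone gene hsp-3 at 0.27 (log2 units). Closest to lbp-1 were F20C5.6 at 0.14, fipr-24 at 0.15 and the neuropeptide-like gene nlp-50 at 0.17. Within 0.5 log2 units lay 15 genes for lbp-7 and 103 for lbp-1. With 3 arrays of 1 condition this likeness describes the size of the ratios and little else.

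Lipid-binding proteins take up and hand on fatty acids that other proteins import, build, activate, burn or store, and 118 measured genes of these steps and of their regulation were set beside the family. Of these 118 genes, 37 were higher and 21 lower by the same limma test, with a median of 0.10. Over all genes tested 11.4% were higher and 11.9% lower, which is the background for each list count below. No list was tested against other genes. Higher means than that of lbp-7 were found for 5 of the 118 genes and higher than that of lbp-6 for 7, while 9 stood below lbp-1. The least extreme of the called lbp genes was lbp-5, with 13 of the 118 above it.

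In the list for lipid transport outside cells, 2 of 13 measured genes were higher and 4 lower, with a median of -0.26. The list is wider than carriers outside cells, since it also holds the receptor gene rme-2 and dsc-4. Where the product of each listed gene acts was not tested. One of the higher genes was dsc-4, named after its values were seen, at 2.04 ± 0.23 (SD, n = 3; limma adjusted p = 0.00013). The lower genes were the yolk protein gene vit-2 at -5.63 ± 1.24, the fatty acid and retinol binding protein genes far-7 at -3.15 ± 0.23 and far-3 at -2.43 ± 0.33, and the yolk receptor gene rme-2 at -2.50 ± 0.34 (SD, n = 3 each; limma adjusted p between 1.41e-05 and 6.10e-05). vit-5 at 0.27 ± 0.24 and vit-6 at -0.01 ± 0.43 did not pass (limma adjusted p = 0.400 and 0.973). The other vitellogenins were not among the genes tested. The far family, another family of fatty acid binders, held called members on both sides, since far-1, named after its values were seen, was higher at 1.02 ± 0.18 (SD, n = 3; limma adjusted p = 0.00633).

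Acyl-CoA binding proteins hold activated fatty acids in the cytosol. Of 6 measured genes 2 were higher and 0 lower by limma (median 0.04), acbp-3 at 1.14 ± 0.59 (adjusted p = 0.00997) and acbp-1 at 0.93 ± 0.56 (0.0240; SD, n = 3 each). Without prep 1, or with arrays scaled to one median absolute deviation, the number of higher genes was 1, and without prep 3 it was 0.

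Of 37 measured genes of fatty acid breakdown 20 were called higher and 1 lower, and 16 missed the threshold (median 0.70), in the likely direction of the ratio; with all signs turned, 1 would be higher and 20 lower. The share of higher genes over all genes tested was 11.4%. The list was not split by pathway, so its count is not one of fatty acid burning alone. The genes with the largest ratios were acdh-1, a dehydrogenase that serves propionate breakdown, at 4.0 ± 0.14, the peroxisomal acyl-CoA oxidase gene acox-1.2 at 2.94 ± 0.74, the peroxisomal thiolase gene daf-22 at 2.33 ± 0.75 and the enoyl-CoA hydratase gene ech-6 at 2.31 ± 0.29 (SD, n = 3 each; limma adjusted p between 6.65e-06 and 0.000328). The means of daf-22 and ech-6 were close to the 2.31 of lbp-7. With any prep left out, 18 of the 37 were higher.

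Of 17 lipase and lipid droplet genes 8 were lower and 3 higher (median -0.60). The fasting-induced lipase gene fil-1 was at -2.42 ± 0.53 and the perilipin gene plin-1 at -1.74 ± 0.68, against the lysosomal lipase gene lipl-5 at 2.22 ± 0.75 and the triglyceride synthesis gene dgat-2 at 1.80 ± 0.39 (SD, n = 3 each; limma adjusted p between 0.000108 and 0.00135). Leaving out prep 1, 2 or 3 gave 5 lower genes each time. The lysosomal lipase gene lipl-4, which in worms acts upstream of LBP-8, had log2 ratios of -0.49, -0.86 and -0.46 and did not pass (limma adjusted p = 0.0664); it was named for that role after its values were seen.

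Genes of fatty acid synthesis, desaturation and elongation went both ways, with 5 of 15 higher and 6 lower (median -0.14). The gene fat-3, for the delta-6 desaturase, was at -3.66 ± 0.33, the delta-5 desaturase gene fat-4 at -1.34 ± 0.12 and the delta-9 desaturase gene fat-7 at -1.32 ± 0.28, while the acetyl-CoA carboxylase gene pod-2 was at 1.43 ± 0.82 (SD, n = 3 each; limma adjusted p between 8.72e-06 and 0.00646). The number of higher genes was 0 of 15 without prep 2, and 4 without prep 1 or prep 3; over all genes tested, higher calls numbered 770 without prep 2, against 1718 with all preps. Acyl-CoA synthetases, which activate fatty acids, had 4 of 19 higher and 2 lower (median 0.07). Over all genes tested 11.4% were higher and 11.9% lower, so the lower count is near that share. Their members with the largest ratios were acs-2 at -3.19 ± 0.28, acs-11 at -1.93 ± 0.33, acs-5 at 1.81 ± 0.22 and acs-1 at 1.27 ± 1.3 (SD, n = 3 each; limma adjusted p between 1.41e-05 and 0.0434). Without preps 1, 2 and 3 in turn, 5, 1 and 2 synthetase genes were higher, and 2 were with arrays scaled to one median absolute deviation.

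Of 11 measured regulators of fat metabolism genes 1 was higher and 0 were lower by limma (median -0.08), against 11.4% and 11.9% of all genes tested. The higher gene was nhr-80, a nuclear hormone receptor that acts with LBP-8, at 0.87, 1.22 and 0.31 in preps 1, 2 and 3 (mean 0.80 ± 0.46, SD, n = 3; adjusted p = 0.0347), and it did not pass without prep 1, without prep 2, with array weights or at an adjusted p under 0.01. nhr-49, the partner receptor in that pathway, had log2 ratios of -0.20, 0.0030 and -0.17 (limma adjusted p = 0.718) and was named after its values were seen. Of the known LBP-8 pathway, lbp-8, lipl-4 and nhr-49 did not pass, and the nhr-80 call ended under the settings just named.

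**Figure D4:**
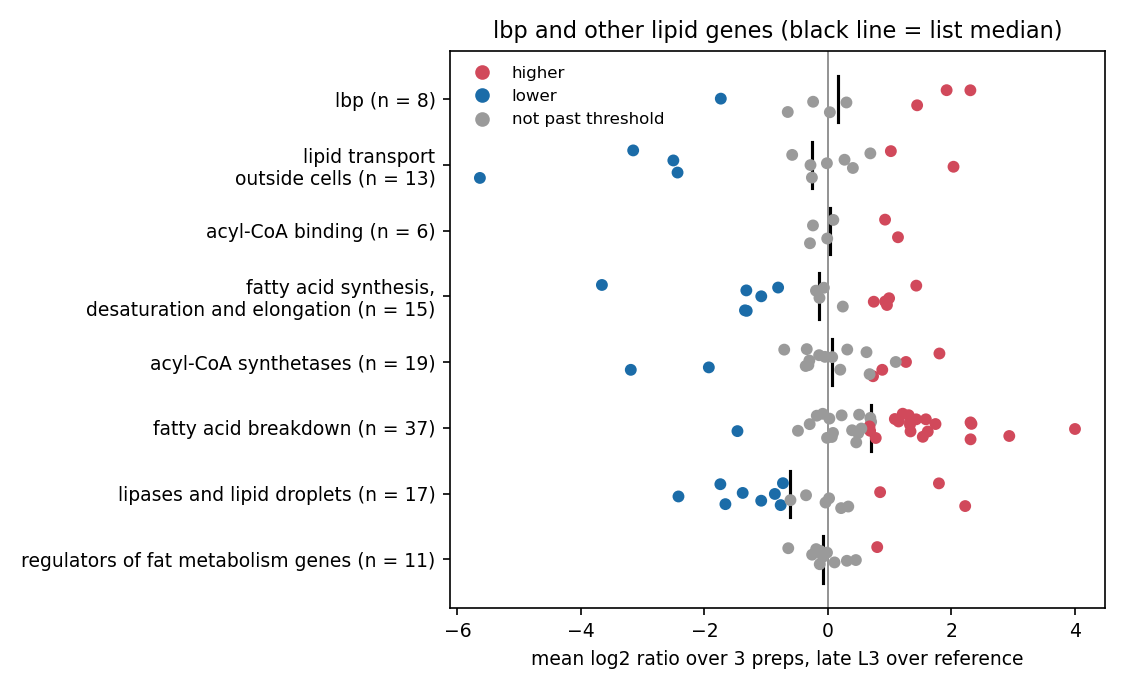
Mean log2 ratio over 3 preps (late L3 over reference, x axis) of each measured gene of the lbp family and of 7 lists of other lipid genes (rows, n measured in brackets), coloured by the limma call, with the list median as a black line. The lbp family has 3 higher and 1 lower of 8 genes, and fatty acid breakdown has 20 higher of 37. Over all genes tested 11.4% were higher and 11.9% lower.

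The lbp genes were also examined under 15 other processing choices, leaving aside the turning of all signs. Of these, 8 can move a mean, and 7 change only the test, its threshold or steps that leave genes with 1 complete probe as they are. Over the 8, lbp-7 lay between 2.12 and 2.61, lbp-6 between 1.78 and 2.08, lbp-5 between 1.21 and 1.73 and lbp-1 between -1.86 and -1.51. The signs of these 4 means were the same in each of the 8. When each gene was tested on its own spread alone, in a one-sample test with 2 degrees of freedom, 0 of the 8 lbp genes passed after adjustment, and 4 had an unadjusted p under 0.05, against 5 with limma. The means of lbp-8 ranged from 0.07 to 0.65 and those of lbp-4 from -0.07 to 0.19.

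**Figure D5:**
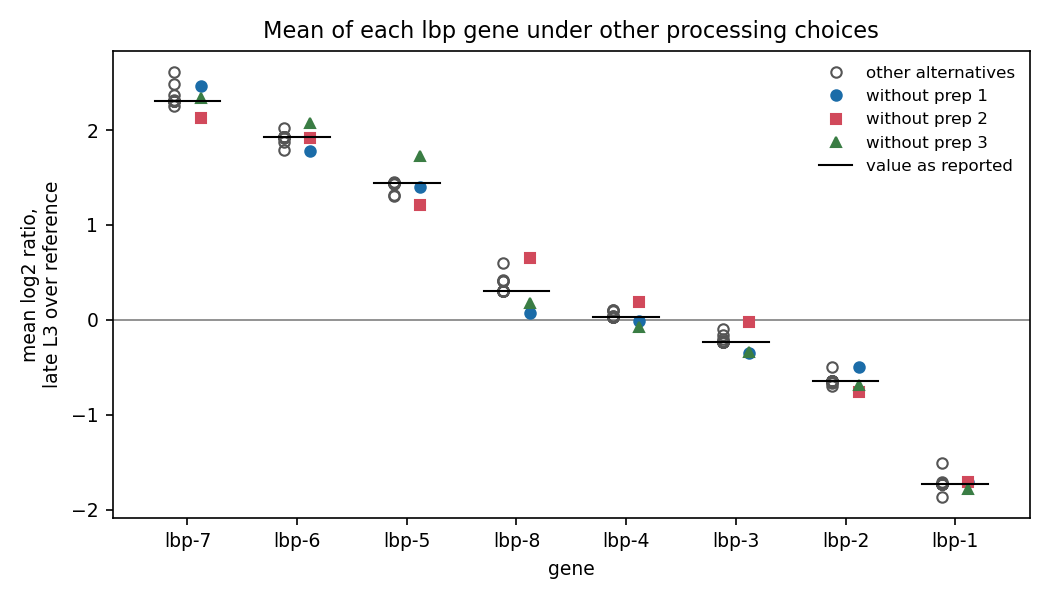
Mean log2 ratio (late L3 over reference, y axis) of each lbp gene (x axis) as reported (black line), without each prep (filled symbols) and under the other processing choices (open circles). lbp-7, lbp-6 and lbp-5 stay at 1.21 or more and lbp-1 at -1.51 or less, and lbp-4 falls on both sides of 0.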

How the data were processed

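Late L3 hermaphrodite RNA was compared with a mixed reference on 3 arrays. The deposited values are log2 ratios of the 2 channels; base 2 was inferred because, back-transformed with it, 100% of ratios under 0.3 fell on whole thousandths on each array (tolerance 0.01 thousandths). The normalization, filters and dyes of the authors are not stated in any source used here. No spot intensities were used, so signal over background and cross-hybridisation between lbp genes were not tested. No probe or gene sequence was used here.

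Arrays were median-centred. Of 20000 probes, 15655 were given 1 gene and renamed through RefSeq (WBcel235), 15569 by gene ID and 7 by accession, while 79 kept an older name; 198 with several genes and 4147 with none were left out. Probes of a gene were averaged. The 15129 genes complete over the arrays entered a limma fit against 0 (version 3.58.1, R 4.3.3; intercept, eBayes, 2-sided, Benjamini-Hochberg over all genes, threshold 0.05; prior 7.92 degrees of freedom, SD 0.397). This leaves out the spread of the reference. The number of arrays limits precision.

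The members and lists were chosen with earlier results of these data known. Named were all lbp genes, their chromosomal neighbours, the 3 genes nearest in value to the highest and lowest member, the vitellogenins, and up to 4 called genes of largest ratio per lipid list. Neighbours are protein-coding; entries of other biotypes were passed over. Figures used matplotlib 3.10.9 in Python 3.11.15. Alternatives covered centring, scaling, quantile normalization, missing values, probes per gene, shared spread, array weights, threshold, identifier trend, turned signs and leaving out each prep.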

Additional observations from a re-analysis of the deposited data

How the results depend on the processing

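The number of arrays limits the precision, and the direction of the ratio is likely but not stated. With all signs turned, 1 lbp gene was higher and 3 lower, at 1.73 for lbp-1, 0.65 for lbp-2, 0.24 for lbp-3, -0.033 for lbp-4, -1.45 for lbp-5, -1.92 for lbp-6, -2.31 for lbp-7 and -0.30 for lbp-8, and 21 lipid genes were higher and 37 lower. When each gene was tested on its own spread in a one-sample test, 0 lbp genes passed on either side; lbp-1 at -1.73, lbp-5 at 1.45, lbp-6 at 1.92 and lbp-7 at 2.31 had adjusted p-values of 0.132, 0.218, 0.168 and 0.168, and 4 lbp genes had an unadjusted p under 0.05, against 5 with limma. There 0 of the lipid genes and 0 of all genes passed, and 3271 genes had an unadjusted p under 0.05, against 5383 with limma. That test has 2 degrees of freedom. lbp-2 passed as lower with quantile normalization (-0.65) and with array weights (-0.66), giving 2 lower lbp genes each time; the cause was not tested. At an adjusted p under 0.01, 24 lipid genes were higher, and 890 and 1004 of all genes were higher and lower, against 1718 and 1805 at 0.05. Without prep 2 these were 770 and 1009. Leaving out each prep gave means of -0.075 to 0.19 for lbp-4, so its sign is not settled, and left 3 higher lbp genes and 1 lower each time. No paired comparison between sample groups was possible, because the design holds a single group. Each ratio already pairs larval and reference RNA on the same array.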
